A study of Apis mellifera with 8 samples.

Results

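Antp (Antennapedia) and Dll (Distal-less) are a pair of homeobox transcription factors, and their transcripts were followed in the heads of queen and worker honey bee larvae. They are 2 of the 9161 genes that RefSeq pairs with a transcript in the data, and 2 of the 8156 genes that held enough counts to be tested. Both were chosen by their levels in these same heads, Dll being higher in workers and Antp in queens. The difference between castes is therefore given for both as a description, without a test. Expression was profiled in 96hQ (queen) and 96hW (worker) larval heads of Apis mellifera at 96 h, with 4 libraries per caste and 1 head per library. Queen larvae were grafted into cups primed with royal jelly, workers were collected from marked frames that had been put back in their hives, and the sources name no allele or drug for either caste. The study describes the front end of the larva, as dissected for its chromatin work, as holding brain, glands, mouthparts, imaginal antennae, cuticle and some fat body, so that a library mixes these tissues. Estimated counts summed to between 19139730 and 23344818 per library, with every queen library above every worker library, and this was the depth before normalization.

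Homeobox genes encode proteins that bind DNA through a homeodomain and switch other genes on or off. Antp belongs to the Hox genes, which are lined up in the genome and give body segments their identity. In Drosophila it acts in the thorax and promotes leg over antennal identity when it is expressed in the head. Dll lies outside the Hox genes and is needed for the outgrowth of the distal parts of appendages, including legs, antennae and mouthparts in Drosophila. Levels of different genes are compared here as TPM, which takes transcript length into account, and levels of 1 gene between heads as counts normalized with TMM, a scaling that adjusts for depth and composition.

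The count of Antp was higher in each queen head than in any worker head. Its normalized counts were 1131 in 96hQ replicate 1, 1588 in replicate 2, 1111 in replicate 3 and 812.5 in replicate 4. In 96hW they were 372.7, 768.5, 323.4 and 393.1 in replicates 1 to 4. The castes were apart by a narrow margin, since the lowest queen head was only 1.06-fold above the highest worker head. The mean was 1160 ± 320 (SD, n = 4 heads) in 96hQ and 464.4 ± 204.8 in 96hW. The log2 fold change of 96hQ over 96hW was 1.32 (SE 0.31), a 2.5-fold difference. Antp was chosen on the direction of this difference, and its counts did not overlap between castes. From the 8 fits that left out 1 head, only the size is therefore read, not the sign. The log2 fold change was 1.13 without 96hQ replicate 2, the highest queen head, and 1.68 without 96hW replicate 2, the highest worker head.

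The count of Dll was higher in each worker head than in any queen head. Its normalized counts were 2460, 2540, 2378 and 2706 in 96hQ replicates 1 to 4. In 96hW they were 4068, 3515, 3649 and 4114. The heads of each caste lay close together and the castes were well apart, the lowest worker head being 1.30-fold above the highest queen head. The mean was 2521 ± 140 (SD, n = 4 heads) in 96hQ and 3837 ± 300 in 96hW, which gave a log2 fold change of -0.61 (SE 0.07), or 1.52-fold. The smaller fold of Dll thus came with a smaller error than that of Antp. For background, the castes did not overlap in 17.2% of the genes tested with queens on top, and in 14.7% with workers on top. At an adjusted p under 0.01 from edgeR, 5.21% of all genes were higher in 96hQ and 3.40% in 96hW. Since the genes were chosen on this difference, nothing is read from their place in these shares.

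**Figure D1:**
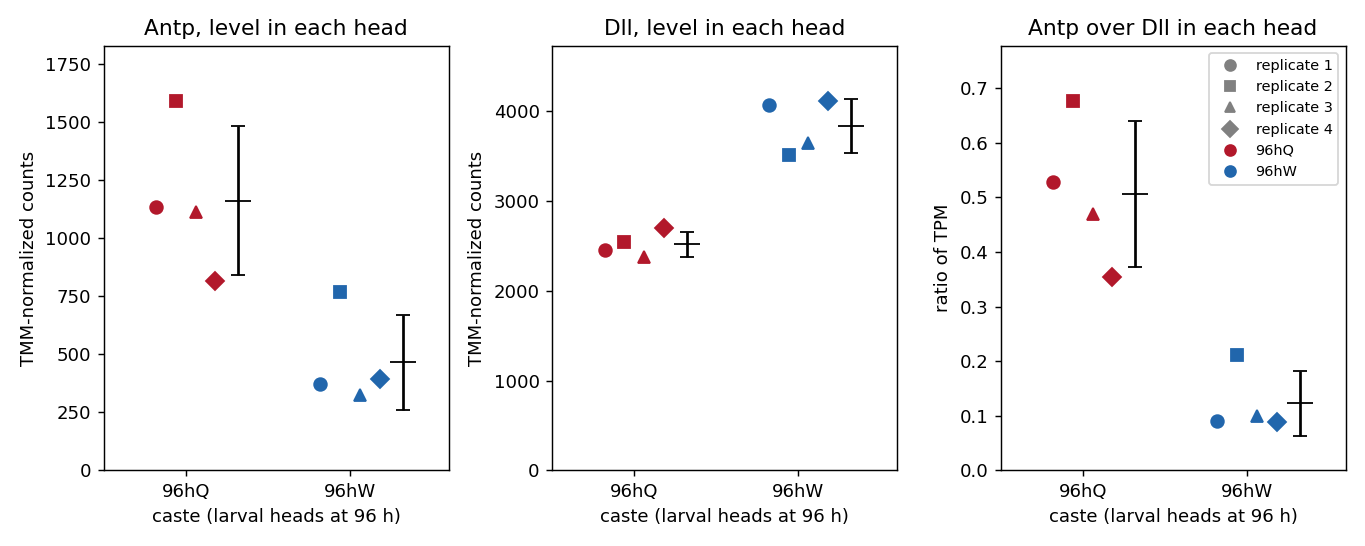
Each point is 1 larval head, with the shape giving the replicate and the colour the caste, and the black bars are the mean and SD of 4 heads. The left and middle panels show TMM-normalized counts of Antp and Dll, and the right panel the ratio of Antp to Dll in TPM. The castes do not overlap in any panel, which for the ratio follows from the opposite differences of both genes. Antp spreads more widely among heads than Dll.

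Heads of the same caste differed far more in Antp than in Dll. The coefficient of variation of Antp was 27.6% among queen heads and 44.1% among worker heads, where counting error alone would give 2.85% and 4.77%. Among the 3130 genes within 2-fold of its mean level, 88.8% varied less among queen heads and 97.8% varied less among worker heads. Dll varied by 5.56% among queen heads and 7.81% among worker heads, with counting error of 1.94% and 1.65%. Of the 1677 genes within 2-fold of its level, 26.2% varied less than Dll among queen heads and 61.5% among worker heads. Antp was thus among the more variable genes of its abundance within each caste, while Dll was not. Among worker heads this rested mainly on replicate 2, at 768.5 normalized counts against 323.4 to 393.1 in the others. The head with the most Antp was replicate 2 in either caste, but the replicate numbers did not pair the heads.

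Dll was the more abundant gene in all 8 heads. Its level was 24.5 ± 3.41 TPM in 96hQ and 41.6 ± 4.23 TPM in 96hW (SD, n = 4 heads each). That of Antp was 12.5 ± 4.21 TPM in 96hQ and 4.97 ± 2.04 TPM in 96hW. By mean TPM over all heads, 57.3% of the genes tested lay below Dll and 24.2% below Antp. The castes stayed apart on this scale as well, Antp ranging from 9.37 to 18.4 TPM in queens and from 3.69 to 8.002 TPM in workers. Dll ranged from 19.98 to 27.2 TPM in queens and from 37.9 to 47.4 TPM in workers.

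The ratio of Antp to Dll within a head sets the opposite differences side by side. In TPM it was 0.528, 0.676, 0.469 and 0.354 in 96hQ replicates 1 to 4. It was 0.0903, 0.211, 0.10 and 0.0882 in 96hW. Every queen head had more Antp per Dll than any worker head, with a mean of 0.507 ± 0.134 (SD, n = 4) against 0.122 ± 0.0594. This separation follows from the opposite differences on which both genes were chosen, and is not a further result. The worker head closest to the queens was replicate 2.

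The level of Antp was spread over many transcripts. RefSeq pairs 8 transcripts in the data with Antp, between 2093 and 10628 bases long, and all 8 were tested and had a positive log2 fold change. Of these, 3 did not overlap between castes, all with queens above workers, where 10.7% of the 20863 transcripts tested did so in that direction. Antp was chosen on the sum of its transcripts, so nothing is read from their signs or from that share. The shortest, NM_001011571.1, separated the castes most clearly. Its normalized counts, scaled here over transcripts, were 141.3, 161.5, 93.8 and 113.5 in 96hQ replicates 1 to 4 and 25.2, 42.7, 39.4 and 17.6 in 96hW. All queen heads were thus well above all worker heads, and the log2 fold change was 2.03 (SE 0.37). This transcript held 11.1% ± 2.39 of the counts of Antp in 96hQ and 7.30% ± 3.43 in 96hW (SD, n = 4), but because it is short it held 35.4% and 25.1% of the TPM. XM_016916898.1 held the largest mean share of counts in queen heads, 22.1% ± 5.57, and had a log2 fold change of 1.65 (SE 0.47). It had 342.7, 310.6, 193.3 and 181.6 normalized counts in 96hQ replicates 1 to 4 and 29.4, 119.5, 59.2 and 119.9 in 96hW, so that the castes were apart while the worker heads differed widely. XM_016916893.1, present in every head, had 108.4 to 271.7 in queen heads and 53.8 to 118.5 in worker heads, with a small overlap and a log2 fold change of 1.04 (SE 0.40). XM_016916895.1, the longest, was similar in this respect, at 1.19 (SE 0.40).

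Several other Antp transcripts were uneven between heads of 1 caste. XM_016916901.1 held 30.3% ± 18.1 of the counts in 96hW, the largest mean share there, and 14.7% ± 6.50 in 96hQ. Its normalized counts were 187.1, 375.8, 95.0 and 88.9 in 96hQ replicates 1 to 4 and 172.1, 218.8, 17.7 and 154.0 in 96hW. The castes overlapped and this transcript differed least between them, with a log2 fold change of 0.41 (SE 0.74) that turned to -0.19 without 96hQ replicate 2. XM_016916900.1 was between 146.1 and 343.0 normalized counts in queen heads but was listed at 0 in 96hW replicates 1 and 4. XM_016916896.1 was at 0 in 1 queen head and 3 worker heads. Coefficients of variation of single Antp transcripts ran from 23.4% to 103% among queen heads and from 27.6% upward among worker heads. The counts are estimates that divide reads among transcripts of a gene, and the error of that division was not measured, so the level of the whole gene is firmer than that of 1 transcript.

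The level of Dll rested mostly on 1 transcript. RefSeq pairs 6 transcripts with it, from 1164 to 7005 bases, and 5 were tested. XM_006560302.2 held 76.5% ± 7.67 of the counts of Dll in 96hQ and 81.0% ± 2.97 in 96hW (SD, n = 4). It had 2176, 1918, 1657 and 2073 normalized counts in 96hQ replicates 1 to 4 and 3379, 2746, 2935 and 3191 in 96hW. All worker heads were above all queen heads, and the log2 fold change of -0.65 (SE 0.11) was close to that of the gene. XM_006560304.2, only slightly shorter, held 18.4% ± 8.27 and 13.4% ± 1.44. It overlapped between castes, with 253.9 to 707.2 normalized counts in queen heads and 417.1 to 573.7 in worker heads, and a log2 fold change of -0.12 (SE 0.28) that turned to 0.08 without 96hQ replicate 1.

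The remaining Dll transcripts were low. XM_016915686.1, a shorter form of 2595 bases, had 0 to 12.3 normalized counts in queen heads and 13.8 to 64.1 in worker heads. It and XM_006560302.2 were the 2 that did not overlap with workers above, where 8.74% of all transcripts tested did so. Dll was likewise chosen on the sum of its transcripts, so nothing is read from that share. XM_016915684.1 was at 0 in 3 queen heads and between 60.9 and 143.7 in worker heads. XM_016915685.1 was at 0 in 1 head of each caste, and its log2 fold change of 0.21 (SE 1.49) has an error many times its size. NM_001131037.1, the shortest, was at 0 in 7 of the 8 heads.

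**Figure D2:**
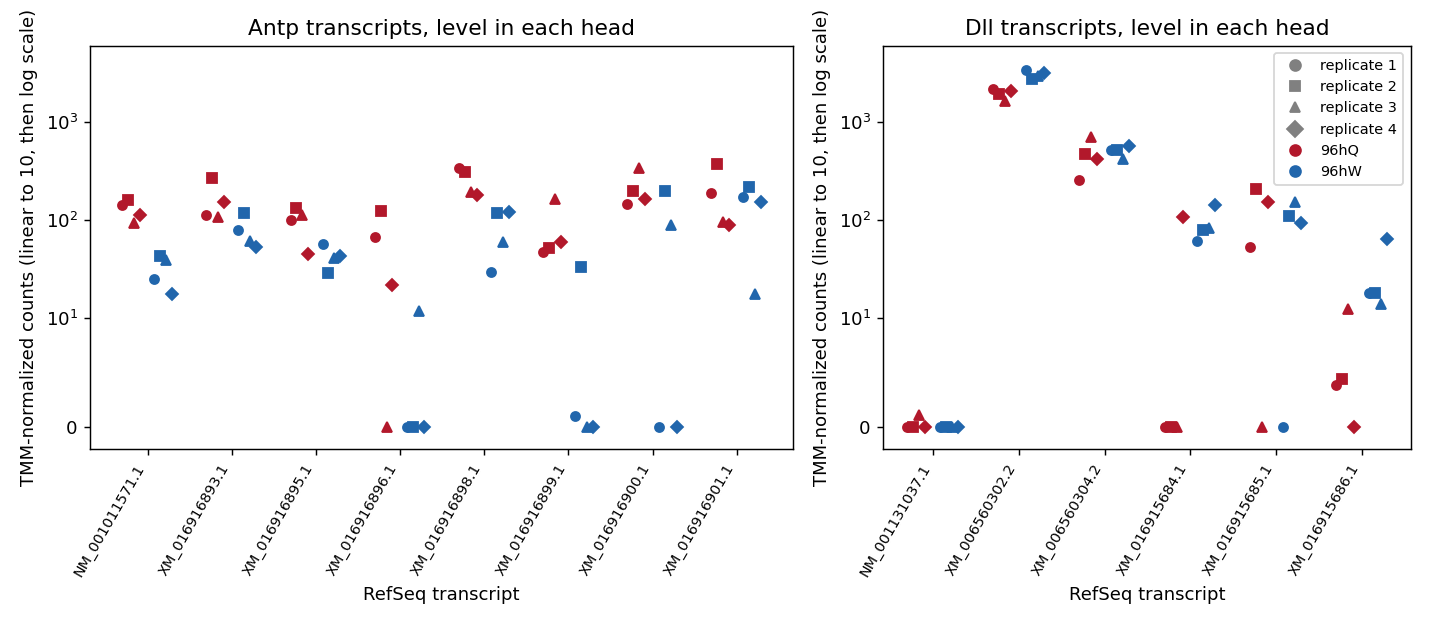
Each point is the TMM-normalized count of 1 RefSeq transcript in 1 head, on an axis that is linear up to 10 and logarithmic above, with colour for caste and shape for replicate. Antp is divided among 8 transcripts, several at 0 in some heads, whereas XM_006560302.2 carries most of Dll in every head.

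Beside Antp and Dll, 6 homeobox genes could be found by symbol, and Ubx was the only Hox gene among them. Ubx, the Hox gene of the posterior thorax and abdomen in Drosophila, is the protein-coding gene nearest to Antp in the order of the annotation, but it had at most 1 estimated count in any head. The posterior patterning gene cad had 3 counts over all libraries. Of the 4 genes tested, 0 passed with edgeR, DESeq2 or limma on log2(TPM + 1). Over all genes 5.21% passed higher in 96hQ and 3.40% higher in 96hW with edgeR, so 4 genes are too few to read this. In edgeR 1 of the 4 had an unadjusted p under 0.05, where 41.0% of all genes did. With DESeq2 2 were under 0.05 and with limma 3. The shares of all genes under those fits are not given, so nothing is read from these counts. The gene under 0.05 in edgeR was Msx, of the muscle segment homeobox family. It had 299.2 to 1159 normalized counts in queen heads and 131.0 to 358.4 in worker heads. The castes overlapped, and the difference was 1.18 on the log2 scale (SE 0.45, adjusted p = 0.0848 from edgeR). Eyg, a Pax family gene named for the Drosophila eye gene eyegone, stood at -0.40 on that scale (SE 0.20, edgeR adjusted p = 0.177). The head patterning gene otd2 stood at -0.31 (SE 0.14, edgeR adjusted p = 0.124). The segmentation gene eve stayed at 0.94 to 13.4 normalized counts. The median of the 4 genes was -0.28, and that of all genes was 0.0048.

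Of 7 patterning and signalling genes listed by symbol, 6 were tested, with a median log2 fold change of 0.01. Among the 6, 1 was higher in 96hW and 0 in 96hQ, where 3.40% and 5.21% of all genes were. Delta (Dl), a ligand of Notch that acts in leg and antennal joints in Drosophila, had means close together, 1619 ± 182 normalized counts in queens and 1629 ± 124 in workers (log2 fold change -0.01, SE 0.09). The beta-catenin gene arm, which carries the Wingless signal, had a log2 fold change of 0.04 (SE 0.14). Mad was the gene that passed, with 1286 ± 192 in 96hQ and 2167 ± 265 in 96hW (a log2 difference of -0.75, SE 0.13, edgeR adjusted p = 0.0057). The reference gives this symbol to a gene other than LOC409301, which the paper calls Mad, and the role of the gene measured here is not stated. It passed in 1 of the 8 fits that left out a head, the one without 96hQ replicate 3 (adjusted p = 0.00378 from edgeR), the others giving adjusted p of up to 0.0205.

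**Figure D3:**
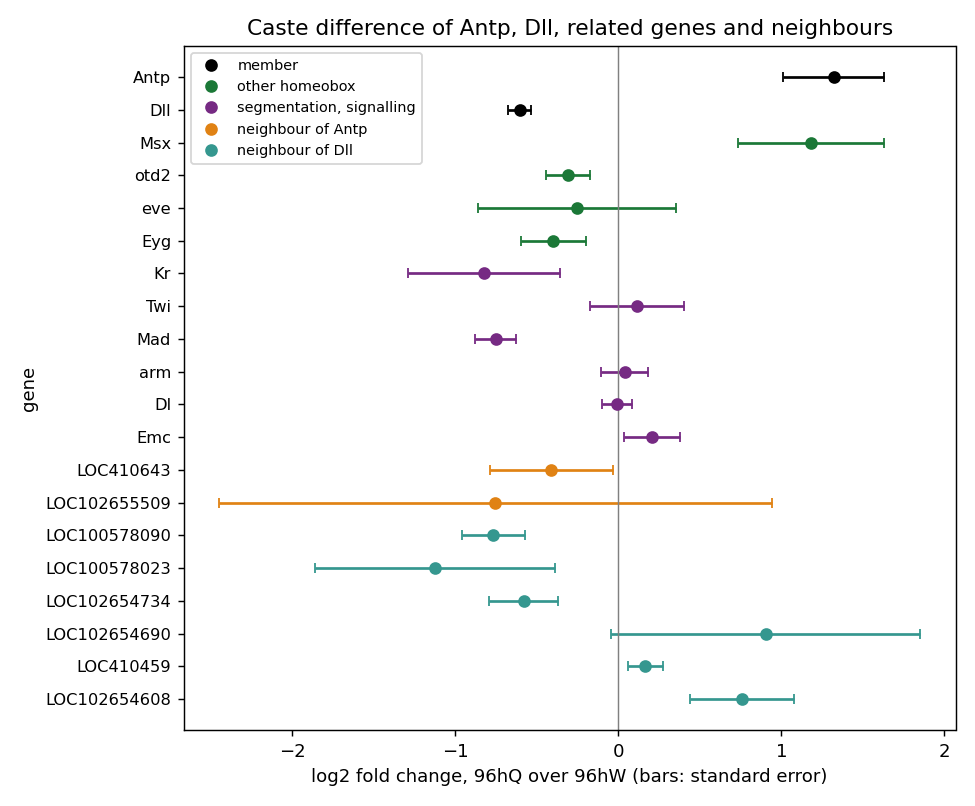
Points are log2 fold changes of 96hQ over 96hW with their standard errors for Antp, Dll, the tested genes of the symbol lists and the tested neighbours of both genes, and positive values are higher in queens. Antp lies at 1.32 and Dll at -0.61, and Msx, at 1.18, is the homeobox gene nearest to Antp.

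The genes annotated around Antp had few counts. Of its 10 nearest neighbours in the order of the annotation, 5 on either side, 7 were in the data and 2 had enough counts to be tested. The long noncoding RNAs LOC102655734 and LOC100578558, annotated within the ends of Antp, had 4 and 11 counts over all 8 heads. LOC410643 had 11.2 to 31.1 normalized counts in queen heads and 20.4 to 43.9 in worker heads. The noncoding LOC102655509 ran from 0 to 73.7 and from 0 to 141.8, with some heads of both castes at 0. No neighbour of Antp passed in edgeR, DESeq2 or limma on log2(TPM + 1), and 0 had an unadjusted p under 0.05.

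Around Dll, 8 of 10 neighbours were in the data and 6 were tested. With edgeR 0 passed and 3 of the 6 were under 0.05 before adjustment, a share near the 41.0% of all genes. With DESeq2, 862 of the 8156 genes tested were higher in 96hW, among them LOC100578090. That gene had 177.4 to 360.1 normalized counts in queen heads and 475.6 to 496.6 in worker heads, so that workers lay above queens, by -0.77 on the log2 scale of queens over workers (SE 0.19, edgeR adjusted p = 0.0232). The nearest noncoding RNA on the same side, LOC102654734, had 17.9 to 25.7 and 27.0 to 37.9, again with workers above (-0.58, SE 0.21, edgeR adjusted p = 0.0771). LOC100578023, also on that side, had 0.94 to 65.9 in queen heads and 69.9 to 124.6 in worker heads (-1.12, SE 0.74, edgeR adjusted p = 0.286). All worker heads lay above all queen heads in 14.7% of the genes tested. On the other side of Dll, LOC410459 overlapped between castes, with a log2 fold change of 0.17 (SE 0.11). LOC102654608, also on that side, leaned the other way, with 37.9 to 77.4 in queen heads, 21.0 to 46.2 in worker heads and a log2 fold change of 0.76 (SE 0.32, edgeR adjusted p = 0.115), and the castes overlapped. The order of genes was taken from a later assembly than the one the study used.

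The genes whose pattern over the heads was most like that of Antp or Dll were picked by a measure that includes the caste difference, so their direction follows from the choice. Likeness was the root mean square difference of mean-centred log2 normalized counts over the 8 heads, among 7850 other genes with a mean of at least 10. The nearest to Antp was LOC726965 at 0.246, followed by LOC107966053, LOC726864, LOC408788 and LOC409708 at up to 0.379, where the median gene was at 0.836. The nearest to Dll was LOC412896 at 0.058, followed by the noncoding RNA LOC100578102 and by LOC410632, LOC412780 and LOC411276 at up to 0.084, with a median of 0.387. LOC412896 had 171.0 to 205.0 normalized counts in queen heads and 246.6 to 293.2 in worker heads. Dll and Antp were 1.09 apart. The measure grows with a gene's own range, so distances from Antp and from Dll are not on a common footing, and the genes in these lists share the libraries and the normalization with the gene they were compared to.

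The summed levels of neuron and cuticle markers also differed between castes, while those of fat body, muscle and silk gland overlapped. The summed level of 14 neuron genes was 91.0 to 116.5 TPM in queen heads and 171.7 to 192.4 TPM in worker heads. The castes did not overlap, and the difference was in the direction of Dll. Of the 14, 4 passed, all higher in 96hW, where 3.40% of all genes did. Not every neuron gene leaned this way, and nAChRa9 had a log2 fold change of 0.61 (SE 0.50). The summed level of 18 cuticle protein genes was 64270 to 118200 TPM in queen heads, highest in replicate 3. In worker heads it was 20640 to 35460 TPM, so the difference was in the direction of Antp. Of the 18, 5 passed, all higher in 96hQ, where 5.21% of all genes did. Here too some leaned the other way, with CPR16 at -1.66 (SE 0.55). For 5 fat body genes the sum was 7459 to 18920 TPM in queen heads. It was 52770 to 62330 TPM in 3 worker heads, but 6870 TPM in 96hW replicate 1. Log2 fold changes of the 5 ran from -1.15 (HEX70b) to -3.99 (Vg). Of the 5, 2 passed, higher in 96hW, where 3.40% of all genes did. None of 6 troponin genes of muscle passed with edgeR, and 1 had an unadjusted p under 0.05, less than the share of all genes. The part of these tissues in the levels of Antp and Dll was not tested, and in whole heads fewer cells of a type and less RNA per cell cannot be told apart. Ubx, the only trunk marker found by symbol, stayed near 0, and markers of the silk glands were low. A single gene of the posterior trunk cannot stand for the trunk as a whole. Ubx had at most 1 estimated count, and 4 fibroin genes together had 5.005 to 8.69 TPM in queen heads and 6.21 to 9.97 TPM in worker heads. With 96hQ replicate 3 and 96hW replicate 1 both left out, the log2 fold change was 1.25 (SE 0.38) for Antp and -0.55 (SE 0.08) for Dll.

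Both genes have long transcripts, and genes of such length leaned towards workers. Among 305 genes within 20% of the mean transcript length of Antp the median log2 fold change was -0.18, and among 437 genes so matched to Dll it was -0.19. Antp had the opposite sign to the median of its length, and Dll had the same sign as its median and a larger value. The spread of the matched genes is not given, and the part of length was not tested. When log2(TPM + 1) was used instead, all genes had a median of -0.14, Antp stood at 1.18 (SE 0.26) and Dll at -0.74 (SE 0.13).

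**Figure D4:**
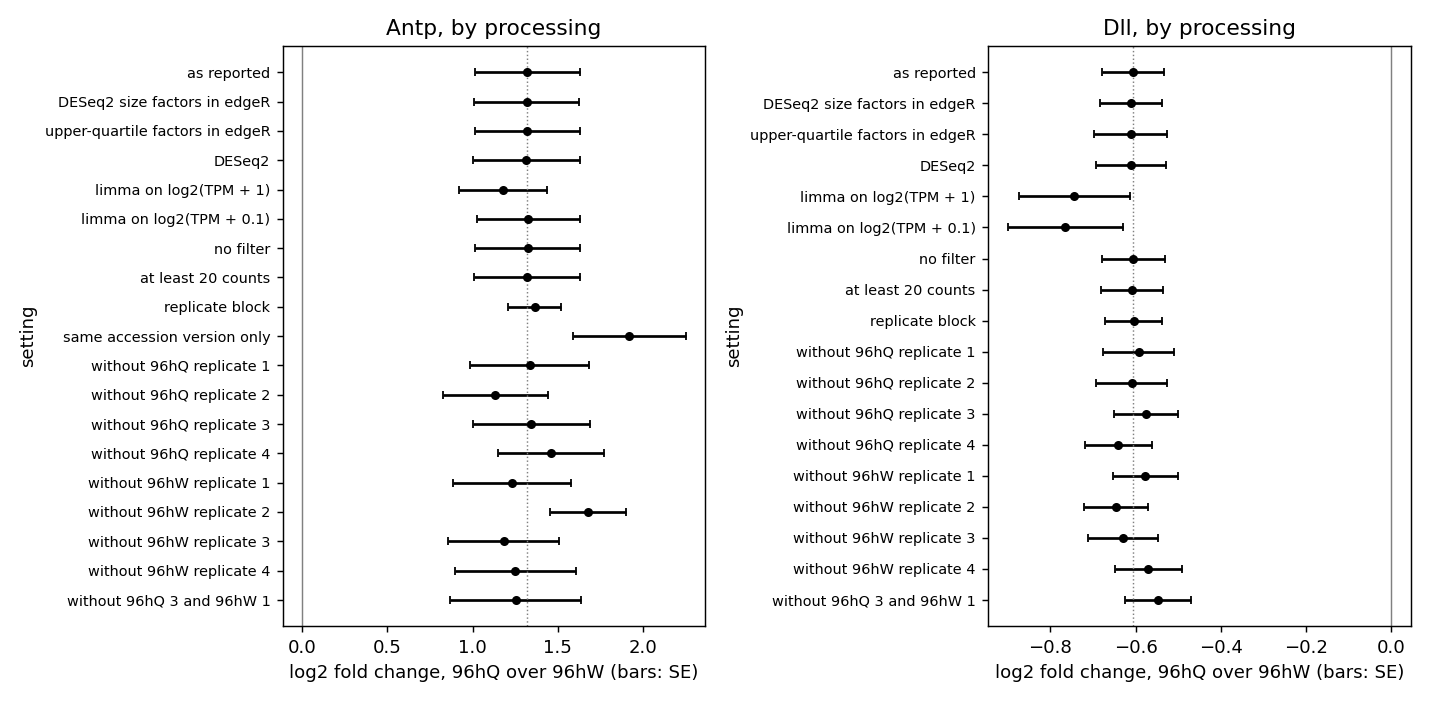
Points are log2 fold changes of 96hQ over 96hW with their standard errors for Antp (left) and Dll (right), as reported and under each other processing of the same heads. Every value of Antp is above 0, between 1.13 and 1.92, and every value of Dll is below 0, between -0.77 and -0.55. Both genes were chosen on this direction, so its being kept is not a further result. Dll has no value for transcripts of the same accession version.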

How the data were processed

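Polyadenylated RNA of single larval heads was sequenced by the authors from both ends, in libraries that keep strand, and quantified with kallisto, whose version is not given in the sources used here. The deposited files hold estimated counts, not normalized between libraries, and TPM, for 28739 RefSeq transcripts, although the paper names an Ensembl transcript set.

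Transcripts were paired with genes by accession root through RefSeq's gene table for Amel_HAv3.1, an assembly later than the study's, which served only for names and gene order. It paired 17723 transcripts (61.7%) with 9161 genes, and 622 of these have a symbol other than LOC. Unpaired transcripts, which may include forms of Antp, Dll or other genes named here, were left out of sums per gene. Counts were rounded and compared with edgeR 4.0.16 in R 4.3.3 (TMM, at least 5 counts in at least 4 of 8 libraries, quasi-likelihood test with caste as the only term, Benjamini-Hochberg adjustment over all genes, threshold 0.01). Normalized counts are scaled to the mean library total after TMM. A standard error is the size of the log2 fold change over the root of F. The script was tested on simulated data. Error terms describe the variation among individual heads of a caste. Whether the heads of a caste came from separate colonies is not stated.

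Results were recomputed with DESeq2's and upper-quartile factors, with DESeq2 1.42.0, with limma 3.58.1 on log2 TPM (pseudocounts of 1 and 0.1), with other filters, with a block for the replicate number, and without each library. Both libraries with unusual marker levels, 96hQ replicate 3 and 96hW replicate 1, were also left out together, a choice made after seeing the data. The study tested with sleuth, which was not run here. Both members and all lists were chosen with earlier results of these data known. A planned list of homeodomain proteins could not be formed without protein sequences, so homeobox and patterning genes were listed by symbol. Named were both genes, their transcripts, tested genes of these lists, 5 neighbours on either side and the 5 genes most like each in pattern.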

Additional observations from a re-analysis of the deposited data

Results flagged for a closer look

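Among 86 groups of 4 heads, 11 held a head far from the other 3, where about 1 in 20 would by chance. Antp stood out in 96hW replicate 2, with 768.5 normalized counts against 323.4 to 393.1 in the other worker heads. Its transcript XM_016916899.1 was high in the same head (33.1, the others at up to 1.05) and in 96hQ replicate 3 (163.1, the others at 47.7 to 59.6). XM_016916896.1 had 11.8 in 96hW replicate 3 and 0 in the other workers. Among Dll transcripts, XM_016915684.1 had 107.8 in 96hQ replicate 4 and 0 in the other queens, and XM_016915686.1 had 64.1 in 96hW replicate 4 against 13.8 to 18.1.

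Outside both genes, arm had 8953 in 96hW replicate 1 against 6304 to 6538. LOC102654690, a noncoding neighbour of Dll, had 54.3 in 96hQ replicate 2 against 2.23 to 7.42. LOC100578102 had 2252 in 96hQ replicate 4 against 1961 to 1972, LOC410632 had 397.3 in 96hW replicate 3 against 423.7 to 426.6, and LOC412780 had 507.1 in the same head against 546.8 to 551.3.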

How the results depend on the processing

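Antp kept its direction in 18 alternatives and Dll in 17. Both genes were chosen on this direction and the castes did not overlap in either, so these counts are not further support. The log2 fold change of Antp was 1.92 with only the transcript of the same accession version, and that of Dll was -0.74 on log2(TPM + 1) and -0.77 on log2(TPM + 0.1). Leaving out 1 head gave 1.13 to 1.68 for Antp and -0.65 to -0.57 for Dll. No Dll transcript of the same version could be fitted.

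With the replicate number as a block the values were 1.37 (SE 0.16) for Antp and -0.60 (SE 0.07) for Dll. Same-numbered heads did not deviate together (correlations of deviations -0.06 to 0.08, and 1 of 4 queen heads correlated best with its own number), and in that fit 10 genes were higher in 96hQ and 0 in 96hW. Over all genes the test gave 425 queen-high and 277 worker-high genes. These counts were 1038 and 862 with DESeq2, 76 and 163 with limma on log2(TPM + 1), 40 and 23 with transcripts of the same version (965 genes tested), and 1196 and 993 at an adjusted p under 0.05 from edgeR. They ranged from 100 to 446 and from 42 to 328 when 1 head was left out. Queen-high genes fell by over 1.5 times without 96hQ replicate 2 (222) or 4 (171) and without 96hW replicate 1 (213), 2 (132), 3 (100) or 4 (126). Worker-high genes did so without 96hQ replicate 1 (180), 2 (140) or 4 (72) and without 96hW replicate 2 (56), 3 (42) or 4 (54). The homeobox genes by symbol stayed at 0 in both directions throughout, but only 4 were tested in the reported fit, too few to read this.

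Among single transcripts, leaving out 1 head gave -0.19 (without 96hQ replicate 2) to 0.70 for XM_016916901.1, -0.39 to 0.079 (without 96hQ replicate 1) for XM_006560304.2, and -0.37 to 0.63 for XM_016915685.1, which was negative without 96hQ replicate 2 (-0.37) or 4 (-0.04) or 96hW replicate 1 (-0.21). The causes were not tested. The search for homeodomain signatures was not run.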
